A study of Mus musculus with 11 samples.

Results

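Metallothioneins and zinc transporters were followed through acute liver injury by 6 genes of the 31053 in the count matrices: the metallothioneins Mt1 and Mt2, the importers Slc39a14 (ZIP14) and Slc39a4 (ZIP4), and the exporters Slc30a1 (ZnT1) and Slc30a10 (ZnT10). The genes were chosen by symbol for what they are known to do, with earlier results of these data known. They were read from Visium libraries, in which polyadenylated RNA of a tissue slice is caught by barcoded spots laid out in a grid, every spot being wide enough to hold several cells. There were 11 mouse liver sections, of which 3 were uninjured (0 h, sections 2, 3 and 4) and 8 were taken after an overdose of acetaminophen (paracetamol, APAP). Of the injured sections, lettered from A within each time, 2 came from 24 h, 2 from 36 h and 4 from 48 h. The study's methods describe adult mice, male unless stated otherwise, and give APAP by intraperitoneal injection after a fast. Neither the labels nor those methods say whether the 0 h mice were fasted, so a fast cannot be told apart from the drug. The labels name no genotype, and the only treatment they give is the overdose itself. A single mouse liver per time point is described for the spatial assay, so n counts sections throughout, the spread between sections may be technical, and mouse, batch and time cannot be told apart.

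APAP is turned into a reactive quinone by cytochrome P450 enzymes of the hepatocytes around the central vein, and overdose kills these cells. Metallothioneins are small cysteine-rich proteins that bind zinc and copper and scavenge oxidants, and in liver their transcription is raised by zinc through the factor MTF1, by glucocorticoids and by IL-6. ZIP proteins carry zinc into the cytosol, ZIP14 being the importer of the hepatic acute-phase response and also a carrier of manganese and iron. ZnT proteins move metal out of the cytosol, ZnT1 across the plasma membrane under the control of MTF1 and ZnT10 mainly as an exporter of manganese.

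In the GENCODE annotation of GRCm38, Mt2 (ENSMUSG00000031762, chr8:94172664-94173568, plus strand, 3 exons) and Mt1 (ENSMUSG00000031765, chr8:94179082-94180327, plus strand, 3 exons) lay 5513 bases apart. Slc30a10 (ENSMUSG00000026614, chr1:185454848-185468762, 4 exons) and Slc30a1 (ENSMUSG00000037434, chr1:191906767-191913247, 2 exons) were both on the plus strand of chromosome 1. Slc39a14 (ENSMUSG00000022094, chr14:70303469-70351425, 10 exons) and Slc39a4 (ENSMUSG00000063354, chr15:76612383-76617384, 12 exons) were on the minus strand. Exon numbers are those of a coding transcript.

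The metal response element (MRE), the DNA site that MTF1 binds, has a short core that can be read in promoter sequence, and the promoters of 4 members were matched by symbol among RefSeq promoters (GRCm38.p6). Windows ran from 250 bases before to 50 bases after the RefSeq start, and only the 250 bases upstream are shown, 5′ to 3′, because Mt1, Mt2 and Slc30a1 are textbook MTF1 targets while Slc30a10 is printed for comparison. Capitals mark matches to the MRE core TGCACNC or TGCGCNC on either strand. The intervals were chr8:94178839-94179088 for Mt1, chr8:94172368-94172617 for Mt2, chr1:191906531-191906780 for Slc30a1 and chr1:185454598-185454847 for Slc30a10, all on the plus strand.
Mt1: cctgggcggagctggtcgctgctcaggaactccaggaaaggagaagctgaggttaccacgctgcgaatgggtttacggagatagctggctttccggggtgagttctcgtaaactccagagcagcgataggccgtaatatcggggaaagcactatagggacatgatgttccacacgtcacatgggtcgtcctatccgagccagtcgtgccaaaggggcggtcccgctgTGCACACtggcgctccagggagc
Mt2: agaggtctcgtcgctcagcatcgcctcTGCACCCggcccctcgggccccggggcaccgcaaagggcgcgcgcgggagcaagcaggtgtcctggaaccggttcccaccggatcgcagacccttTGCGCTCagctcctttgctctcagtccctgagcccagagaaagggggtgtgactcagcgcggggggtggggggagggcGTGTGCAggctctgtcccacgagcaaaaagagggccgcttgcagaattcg
Slc30a1: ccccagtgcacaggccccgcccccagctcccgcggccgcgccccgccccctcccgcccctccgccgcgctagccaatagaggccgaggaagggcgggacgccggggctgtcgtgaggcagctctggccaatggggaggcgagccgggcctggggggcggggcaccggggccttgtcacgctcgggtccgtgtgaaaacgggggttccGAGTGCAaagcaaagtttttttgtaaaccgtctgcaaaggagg
Slc30a10: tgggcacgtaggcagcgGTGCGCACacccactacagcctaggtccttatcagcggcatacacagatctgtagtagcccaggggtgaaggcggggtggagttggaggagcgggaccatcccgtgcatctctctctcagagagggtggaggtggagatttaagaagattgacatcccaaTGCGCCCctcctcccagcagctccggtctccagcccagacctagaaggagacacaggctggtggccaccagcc

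Over the whole window Mt1 held 3 matches to the MRE core (1 before and 2 after the start), Mt2 held 4 (3 and 1), Slc30a1 held 2 (1 and 1) and Slc30a10 held 3, all before the start, of which 2 overlap each other on opposite strands. Among 32817 RefSeq promoter windows of the same length, 25.7% had at least 1 match, 7.12% at least 2, 1.97% at least 3 and 0.518% at least 4. The antioxidant response element core TGACNNNGC, bound by NRF2, matched 1 time each in Mt2 and Slc30a1, against 12.4% of windows. Neither the glucocorticoid half-site AGAACA (19.0% of windows) nor the STAT core TTCNNNGAA (8.29%) matched in any of the 4 windows. Both strands were searched, and a match describes letters in a window and not a bound site. The RefSeq start differs from the GENCODE start for Mt1, Mt2 and Slc30a1, and windows around other starts were not searched. Sequence past the downstream end of each window was not searched either. Of the 3 MRE matches of Mt1, 2 lay after the RefSeq start and so outside the printed bases. The upstream count of Mt1 and its lack of an antioxidant match therefore describe this window and not its promoter as a whole.

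Passing spots numbered 1490 to 3466 per section and summed to 31292663 to 67045372 unique molecular identifiers (UMIs, counted molecules), and hepatocyte markers were high in every section. Their summed level was 119154 to 124620 CPM at 0 h and 85325 to 113945 CPM after injury, without overlap. CPM here is UMIs per 1000000 of the section total after TMM scaling, which sets the total so that most genes do not differ. Sections B at 24 h and at 36 h stood apart from section A of their own time in the metallothioneins. Mt1 was 8.55-fold higher in B than in A at 24 h and 8.76-fold higher at 36 h, and Mt2 8.98-fold and 14.5-fold higher, whereas Slc30a10 lay at 0.629 and 0.241 of its level in A. Between A and B only 0.985% of all genes differed in this direction by more than 2-fold at 24 h and 4.51% at 36 h. Other lists moved with these sections. The summed level of 5 neutrophil markers went from 41.5 CPM in A to 142 in B at 24 h and from 25.4 to 66.6 at 36 h, against 3.17 to 9.05 at 0 h and 35.5 to 113 at 48 h. That of 4 red cell genes went from 332 to 1060 and from 271 to 1185 CPM, against 91.8 to 1607 at 0 h and 311 to 624 at 48 h. For glucocorticoid-responsive genes the sum was 493 CPM in A and 1446 in B at 24 h, then 1340 and 3169 at 36 h, beside 2486 to 2886 in uninjured sections and 887 to 1517 in those of 48 h. The 19 acute-phase genes, many of them raised by IL-6, summed to 64971 CPM in A and 86347 in B at 24 h and to 30749 and 36221 at 36 h, against 22839 to 30255 at 0 h and 23117 to 34988 at 48 h. Of these 19, 5 were more than 2-fold higher in B at 24 h and 5 at 36 h, not necessarily the same genes. The myofibroblast sum at 36 h went from 124 to 384. No marker of these lists was at 0 in any section. The part of these in the metallothionein levels was not tested, and the results are given with and without both B sections where they change.

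Mt1 was low in uninjured liver, with 180, 129 and 311 CPM in sections 2, 3 and 4. At 24 h it reached 2229 CPM in A and 19050 in B, at 36 h 1426 in A and 12483 in B, and at 48 h 1175, 613, 2081 and 364 in A to D. Every injured section lay above every uninjured one, although the lowest, 48 h D, was close to the highest at 0 h. In an edgeR quasi-likelihood fit over all 11 sections and 14821 genes, Mt1 rose 51.5-fold at 24 h (log2 5.69 ± 1.17 SE, adjusted p = 0.00389) and 33.7-fold at 36 h (5.07 ± 1.14, adjusted p = 0.0103). At 48 h the difference was 5.12-fold and missed the threshold (2.36 ± 0.95, adjusted p = 0.0683). Without both B sections the log2 difference was 3.40 ± 0.86 at 24 h (adjusted p = 0.0260), 2.77 ± 0.87 at 36 h (0.0746) and 2.34 ± 0.68 at 48 h (0.0297), so the call at 36 h was lost and one at 48 h was gained. Without 36 h B alone the 36 h call was lost as well (2.79, adjusted p = 0.131).

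Mt2, the neighbouring gene, was likewise highest in both B sections. It stood at 17.2, 11.2 and 33.1 CPM at 0 h, at 370 and 3323 in A and B at 24 h, at 189 and 2739 at 36 h, and at 212, 64.6, 322 and 48.0 at 48 h. The injured and uninjured sections did not overlap. Mt2 rose 90.2-fold at 24 h (log2 6.50 ± 1.38 SE, adjusted p = 0.00455) and 71.6-fold at 36 h (6.16 ± 1.36, adjusted p = 0.00951), and was 7.90-fold higher at 48 h without passing (2.98 ± 1.11, adjusted p = 0.0532). Without both B sections the log2 differences were 4.14 (adjusted p = 0.0266), 3.19 (0.0858) and 2.97 (0.0289). Across the 11 sections the log2 levels of Mt1 and Mt2 had a Pearson r of 0.997. This describes libraries that differ in depth and time, and the sections of a time may share a mouse.

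Together the metallothioneins took up 0.0114% to 0.0269% of all UMIs in the uninjured sections and 0.0468% to 2.20% in the injured ones. The mean share was 0.0180% ± 0.00805 (SD, n = 3) at 0 h and 0.600% ± 0.821 (SD, n = 8) after injury (exact permutation test, two-sided, p = 0.0121, adjusted p = 0.0242 over 4 section measures). As the groups did not overlap, this p is the smallest that the two-sided test can give for these sections. The difference was 0.582 percentage points, 0.354 without 24 h B and 0.149 without both B sections (exact adjusted p = 0.0333 and 0.0476). The balance of the pair shifted as well. Uninjured sections had 10.5, 11.5 and 9.39 Mt1 UMIs for each Mt2 UMI, injured sections 4.56 to 9.50, so that only 48 h B reached the lower end of the 0 h range. The mean ratio fell from 10.4 ± 1.05 (SD, n = 3) to 6.62 ± 1.54 (SD, n = 8; exact permutation test, p = 0.0242, adjusted p = 0.0323), a quantity that does not depend on how sections are scaled. When both B sections were omitted, the difference in the ratio was -3.34, with an adjusted p of 0.0635 in the exact test. Neither the share nor the ratio passed once any uninjured section was left out, with exact adjusted p of 0.0593 to 0.119. With so few uninjured sections, passing after adjustment would need all 4 measures at the smallest p possible. This loss was therefore close to fixed by the number of sections. These are ratios of 3′ UMIs within a section and not of transcript mass.

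Slc39a14 encodes ZIP14. Its level was 73.1, 68.7 and 61.1 CPM at 0 h, 145 in A and 184 in B at 24 h, 79.3 and 136 at 36 h, and 90.6, 80.0, 83.8 and 61.9 at 48 h. Both 24 h and both 36 h sections lay above the 0 h range, 36 h A by the least of these, and 48 h D fell inside it. The rise passed at 24 h (2.43-fold, log2 1.28 ± 0.22 SE, adjusted p = 0.00114) and at 36 h (1.59-fold, 0.67 ± 0.22, adjusted p = 0.0429), but not at 48 h (0.22 ± 0.19, adjusted p = 0.354). With both B sections left out, the 36 h difference was 0.21 with an adjusted p of 0.488, and the call was lost in 6 of the fits that left out 1 section, each of the uninjured ones, 36 h B, 48 h B and 48 h C (0.23 to 0.72, adjusted p = 0.0545 to 0.480).

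Slc39a4 encodes ZIP4, best known as the zinc importer of the intestine, and moved the opposite way. It stood at 89.2, 74.3 and 84.1 CPM at 0 h, 52.4 and 34.0 at 24 h, 31.2 and 34.2 at 36 h, and 26.9, 23.6, 32.0 and 29.9 at 48 h. No injured section reached the uninjured range. Slc39a4 fell 1.91-fold at 24 h (log2 -0.93 ± 0.19 SE, adjusted p = 0.00264), 2.52-fold at 36 h (-1.33 ± 0.19, adjusted p = 0.00116) and 2.94-fold at 48 h (-1.55 ± 0.15, adjusted p = 4.76e-05). It was the only member called at all 3 times, and it was called at each of them in 18 of 18 alternative settings, leaving out sections included. Because a spot mixes cells, fewer cells that carry a transcript and less of it per cell cannot be told apart, here or in what follows.

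Slc30a1, the plasma-membrane zinc exporter, showed little movement between sections: 28.7, 27.3 and 23.0 CPM at 0 h, 26.2 and 28.3 at 24 h, 34.1 and 31.0 at 36 h, and 23.2, 23.8, 20.7 and 25.9 at 48 h. Both 36 h sections lay above the 0 h range and 48 h C below it. None of the differences from 0 h passed, with log2 values of 0.05 ± 0.13 SE (adjusted p = 0.789), 0.30 ± 0.13 (0.0898) and -0.17 ± 0.10 (0.204). Slc30a10, the manganese exporter, stood at 60.0, 67.7 and 72.2 CPM at 0 h, at 67.0 and 42.1 in A and B at 24 h, at 29.3 and 7.05 at 36 h, and at 24.1, 32.5, 22.3 and 35.3 at 48 h. All 6 sections at 36 h and 48 h were below the 0 h range, whereas 24 h A was inside it. The fall passed at 36 h (3.67-fold, log2 -1.87 ± 0.49, adjusted p = 0.0192) and at 48 h (2.33-fold, -1.22 ± 0.38, adjusted p = 0.0250), whereas the 24 h value did not (-0.29 ± 0.46, adjusted p = 0.647). Of 7 hepatocyte markers, 4 were called lower and 2 higher at 24 h (median log2 -0.45), 2 and 1 at 36 h (-0.27) and 4 and 2 at 48 h (-0.40), and their part in the falls of Slc39a4 and Slc30a10 was not tested. In the fit that omitted both B sections the 36 h value of Slc30a10 was -1.20 (adjusted p = 0.0163) and the 48 h value -1.25 (0.000280). The 48 h call was lost when 0 h section 3 or 4 or 48 h section A or C was left out (-1.22 to -1.12, adjusted p = 0.0612 to 0.0670).

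**Figure D1:**
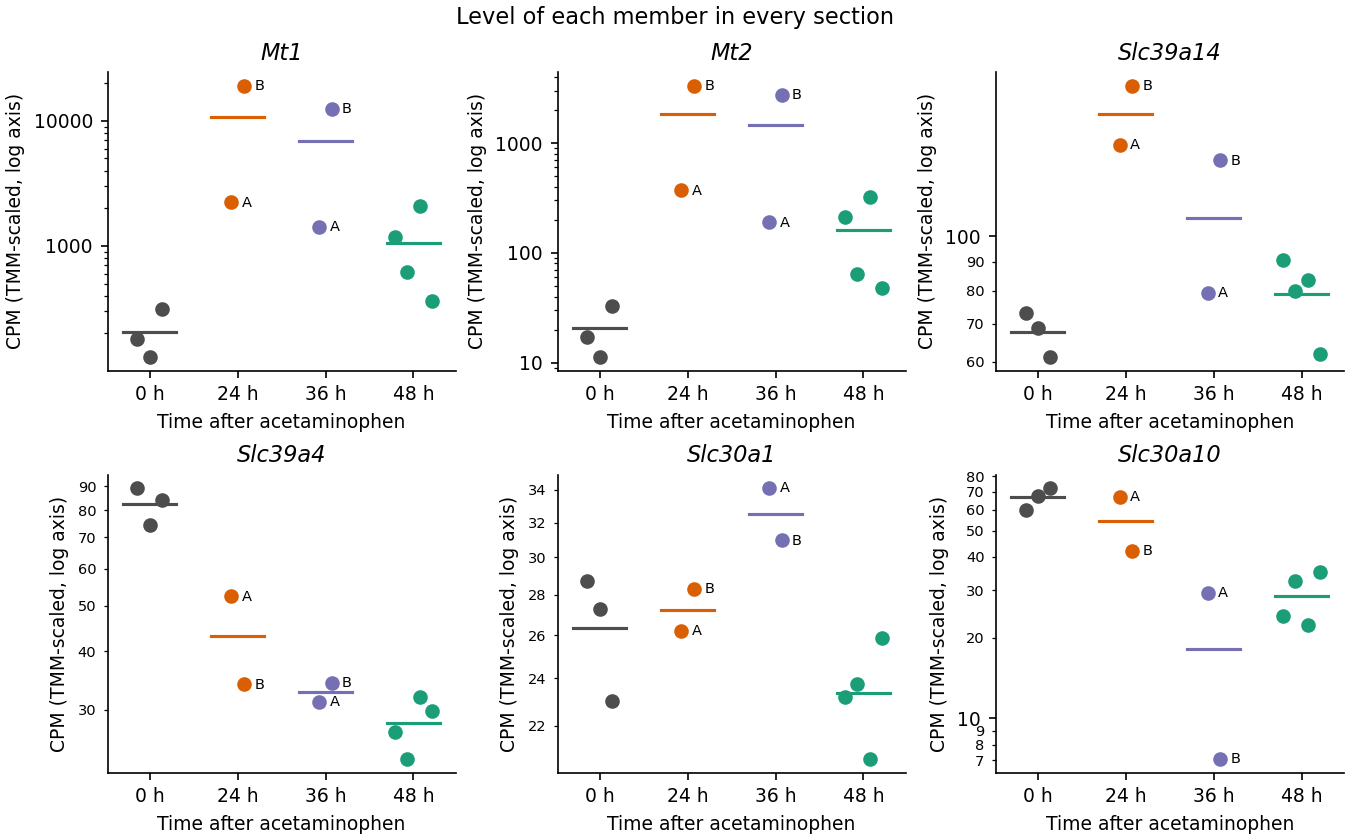
Level of each of the 6 genes (CPM after TMM scaling, log axis) against time after acetaminophen, with 1 point per section, sections A and B marked at 24 h and 36 h, and a bar at the group mean. Mt1 and Mt2 are highest in both B sections, Slc39a4 is below its 0 h range in all 8 injured sections, and Slc30a10 is lowest in 36 h B at 7.05 CPM.

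By count, 4 of the 6 members passed at 24 h (3 higher, 1 lower), where 41.7% of all genes tested did (23.1% higher, 18.6% lower). At 36 h 5 passed (3 higher, 2 lower), where 29.2% of genes did (16.8% and 12.4%), and at 48 h 2 passed, both lower, where 44.2% of genes did and 20.9% were lower. The sections of the 2 times did not overlap for 4, 6 and 4 members, against 69.0%, 55.9% and 54.4% of genes. The median log2 difference over the members was 0.66, 0.49 and 0.03, beside 0.05, 0.05 and 0.01 over all genes tested. The 3 comparisons share the 0 h sections and are not independent of each other. TMM set the uninjured sections to 0.78 to 0.81 of their total and the injured ones to 0.98 to 1.17. Scaling by total UMIs instead raised the median of all genes to 0.37, 0.49 and 0.54, and the members then gave 4 higher and 1 lower at 24 h, 4 and 2 at 36 h, and 4 and 1 at 48 h. Of all genes 41.1% were then higher and 10.0% lower at 24 h, 47.7% and 2.98% at 36 h, and 60.2% and 4.04% at 48 h. Under that scaling Slc30a1 was called higher at 24 h (0.37), 36 h (0.74) and 48 h (0.35), values at or below the shift of all genes at 24 h and 48 h and above it at 36 h, while Slc30a10 at 48 h was no longer called (-0.70, adjusted p = 0.140). Mt1, Mt2, Slc39a14 and Slc39a4 at 24 h kept their call and direction in 18 of 18 alternatives.

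**Figure D2:**
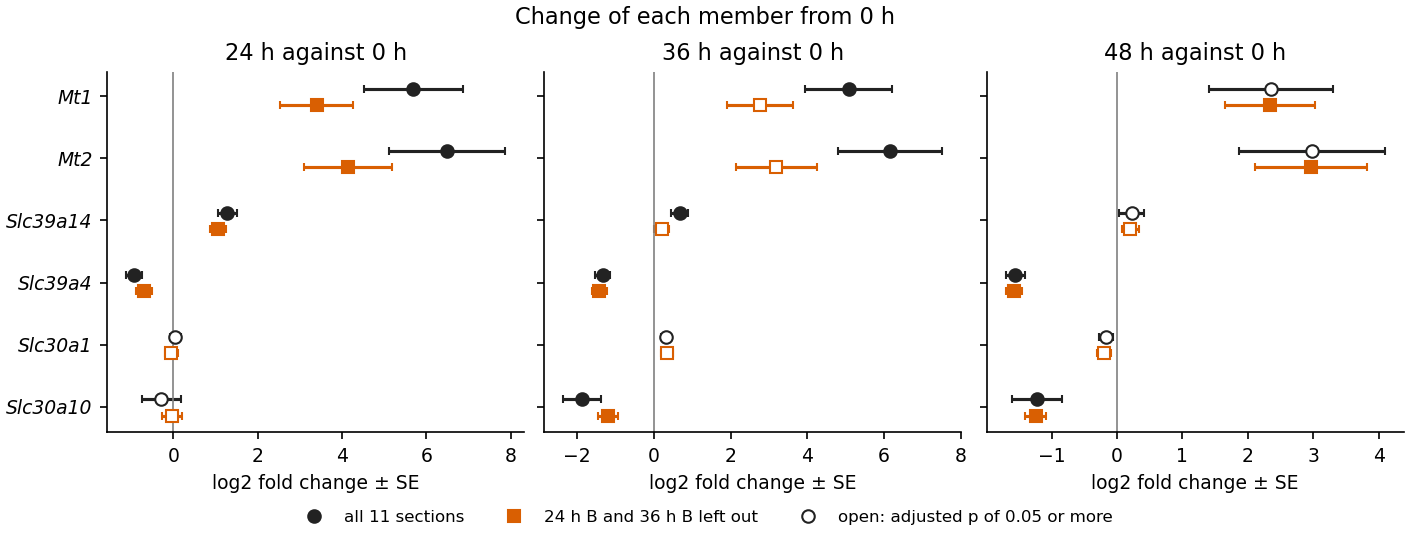
Difference of each of the 6 genes from 0 h at 24 h, 36 h and 48 h (log2 fold change ± SE, edgeR), with all 11 sections (circles) and without 24 h B and 36 h B (squares); open symbols have an adjusted p of 0.05 or more. Leaving out both B sections lowers Mt1 from 5.69 to 3.40 at 24 h and leaves Slc39a4 at -1.58 at 48 h.

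Between injured times, 4 members were lower at 48 h than at 24 h, a comparison in which 34.1% of genes passed and 17.8% were lower. The log2 differences were -3.33 for Mt1 (adjusted p = 0.0247), -3.51 for Mt2 (0.0340), -1.06 for Slc39a14 (0.00350) and -0.62 for Slc39a4 (0.0167). After omission of both B sections those of Mt1 (-1.06) and Mt2 (-1.18) no longer passed, with an adjusted p of 0.401 and 0.432, whereas Slc39a14 (-0.86, 0.00879) and Slc39a4 (-0.88, 0.00581) did. The call of Slc39a4 was lost without 24 h A (-0.28, adjusted p = 0.281), those of Mt1 and Mt2 also without 48 h A or B, and that of Mt2 without 48 h D as well (-3.21, 0.0645). With edgeR no member passed between 36 h and 24 h (15.6% of genes did) or between 48 h and 36 h (3.05%). At an unadjusted p under 0.05, Slc39a14 and Slc30a10 were lower at 36 h than at 24 h, and Mt1, Mt2 and Slc30a1 lower at 48 h than at 36 h. DESeq2 called 1 member in the former comparison (Slc30a10) and 2 in the latter (Mt2 and Slc30a1).

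Within sections, spots were thinned to 2000 UMIs each so that depth did not set detection. Mt1 was then detected in 18.1% to 35.4% of spots at 0 h and in 52.5% to 100% after injury, and Mt2 in 1.67% to 5.37% and in 9.89% to 99.7%. In 24 h B and 36 h B every spot had at least 1 Mt1 UMI, with a median of 36 and 26 of 2000, whereas the median was 4 in 24 h A and 2 in 36 h A. Slc30a10, by contrast, was detected in 8.52% to 10.1% of spots at 0 h and in 1.52% to 13.4% after injury, and Slc39a4 in 11.2% to 13.3% and 4.77% to 10.5%. Spots outside the tissue also carried Mt1, and the part of RNA spread across the slide in these shares was not tested.

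On thinned spots, touching spots were more alike in Mt1 after injury. Moran's I, which is near 0 when touching spots are no more alike than others, was 0.0100, 0.0142 and 0.0405 for Mt1 in the uninjured sections and 0.0490 to 0.291 in the injured ones, without overlap. The means were 0.0216 ± 0.0166 (SD, n = 3) and 0.149 ± 0.0798 (SD, n = 8; exact permutation test, p = 0.0121, adjusted p = 0.0242). For Mt2 they were 0.00842 ± 0.0155 and 0.0369 ± 0.0206 (n = 3 and n = 8; exact permutation test, adjusted p = 0.0485), with overlapping sections. A gene's level moves with this measure, since a rarely detected gene can show little pattern, and its part was not tested. Without thinning, Moran's I of Mt1 was 0.183, 0.0563 and 0.243 at 0 h, not near 0, and 0.266 to 0.516 after injury. Without both B sections the difference was 0.0921 for Mt1 (exact adjusted p = 0.0476) and 0.0218 for Mt2 (0.0952). Mt1 did not pass without any one of the uninjured sections (exact adjusted p = 0.0593 to 0.0889), and Mt2 did not pass with any section left out. For the uninjured sections the limit of the exact test given above holds here too.

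**Figure D3:**
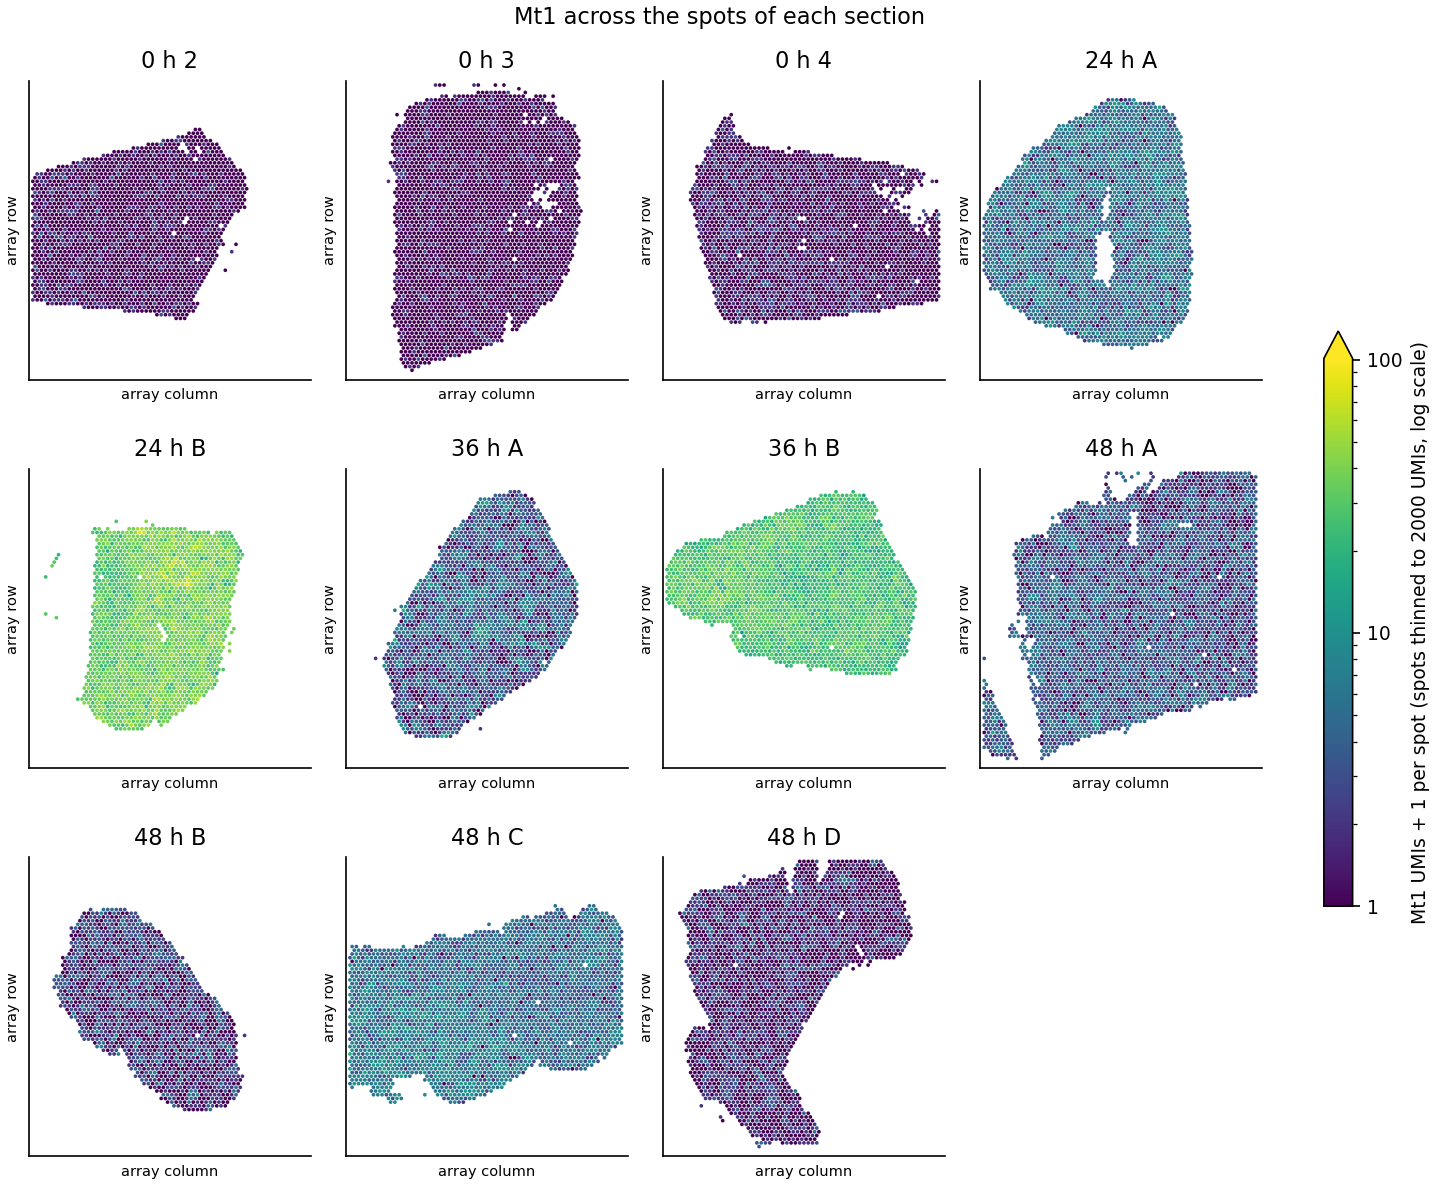
Mt1 in every spot of the 11 sections, drawn at its array row and column, as UMIs plus 1 after thinning each spot to 2000 UMIs (log colour scale from 1 to 100). Uninjured sections are dark, 24 h B and 36 h B bright throughout, and 36 h A and the 48 h sections show bright patches against darker tissue.

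To place the members along the axis from the portal to the central vein in uninjured liver, spots of each 0 h section were ranked by a zonation score built from the study's central and portal gene lists, which hold none of the 6, and the most central and most portal spots, equal in number within a section, were summed. Mt1 was higher in portal spots of every section, at 169, 114 and 285 CPM of unscaled UMIs against 108, 87.2 and 201 in central spots. Mt2 had 17.0, 9.71 and 29.0 against 9.19, 7.01 and 20.6. Slc30a10, too, was higher at the portal end in each section, with 54.4, 62.3 and 65.8 against 43.2, 48.8 and 50.7, and Slc39a4 with 75.2, 66.4 and 68.7 against 63.0, 53.7 and 64.8. With section as a block, 5 members were lower in central spots, where 22.9% of genes passed and 11.9% were lower. The log2 differences were -0.57 ± 0.04 SE for Mt1 (edgeR, adjusted p = 6.03e-10), -0.67 ± 0.08 for Mt2 (2.70e-06), -0.41 ± 0.04 for Slc30a10 (5.48e-08), -0.28 ± 0.04 for Slc39a4 (1.92e-05) and -0.17 ± 0.05 for Slc39a14 (0.0118). That of Slc39a14 was lost under total-count scaling (-0.11, adjusted p = 0.0734), and without section 2 (-0.09, adjusted p = 0.295), and section 3 went the other way with 54.4 portal and 55.5 central. Slc30a1 did not pass (-0.09 ± 0.07, adjusted p = 0.407).

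Because central genes were largely lost after APAP (19 of 23 were lower at 24 h), spots rich and poor in the portal genes alone were compared at every time, after leaving out hepatocyte-low spots. Central genes did not fall on the same side of these classes at all times. Of 23 central genes, 0 were higher and 17 lower in portal-rich spots at 0 h (edgeR, median log2 -0.84), against 10 higher and 4 lower after injury (0.22), and the change between uninjured and injured sections passed as higher for 20. The portal genes themselves fell as well, with 7 of 12 lower and 2 higher at 24 h. In uninjured sections Mt1 in portal-rich spots was 1.51, 1.30 and 1.39 times its level in portal-poor spots. After injury this ratio was 0.614 in A and 1.02 in B at 24 h, 0.373 and 1.05 at 36 h, and 0.538, 0.386, 0.839 and 0.528 at 48 h. Portal-rich spots thus had more Mt1 in 3 of 3 uninjured and 2 of 8 injured sections, the exceptions being both B sections. For Mt2 they had more in 3 of 3 and 0 of 8. Tested at 0 h alone no member passed with edgeR, where 4.92% of genes did, though Slc39a14, Slc30a10 and Slc39a4 had an unadjusted p under 0.05. Over the injured sections alone 5 passed, where 61.3% of genes did, with Mt2 lower in portal-rich spots (log2 -0.42 ± 0.16 SE, adjusted p = 0.0396) and Slc30a10 (1.18 ± 0.07), Slc39a14 (0.47 ± 0.05), Slc30a1 (0.30 ± 0.05) and Slc39a4 (0.13 ± 0.05, adjusted p = 0.0451) higher. In unscaled UMIs, portal-rich spots had more Slc30a10 in 7 of 8 injured sections and more Slc39a14 in 6 of 8. They had more Slc30a1 in only 4 of 8 and more Slc39a4 in only 1 of 8, so these 2 calls depended on TMM scaling. The value of Slc39a4 was -0.18 under total-count scaling, called lower, and that of Slc30a1 was -0.02 and not called. The call of Mt2 was lost in 5 fits that left out 1 section (-0.43 to -0.30, adjusted p = 0.0668 to 0.0893) and that of Slc39a4 in 8 (0.10 to 0.13, adjusted p = 0.0563 to 0.133), whereas Mt1, at -0.37 in the fit over all sections (adjusted p = 0.0695), passed without 24 h B or 36 h B (-0.47 in both, adjusted p = 0.0186 and 0.0221), without both (-0.60, 0.00201) and under total-count scaling (-0.68, 0.00433).

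Slc30a10 stayed higher in portal-rich spots in all injured sections but 36 h B, and by more than at 0 h. Its ratio of portal-rich to portal-poor spots was 1.18, 1.28 and 1.30 at 0 h, 1.69 and 1.77 at 24 h, 2.02 in A and 0.989 in B at 36 h, and 1.93, 1.94, 1.89 and 2.04 at 48 h. All injured sections but 36 h B, where the gene was lowest, exceeded the 0 h range. The change of the gradient itself, an interaction of spot class and injury, passed for 2 members where 30.6% of genes did: Slc30a10 (log2 0.81 ± 0.13 SE, edgeR, adjusted p = 0.000263) and Slc39a14 (0.27 ± 0.10, adjusted p = 0.0402). Slc30a10 was called in 15 of 15 alternatives, with values from 0.54 to 0.94, whereas Slc39a14 was called in 6 of 15 and stood at 0.00 under total-count scaling. Cell type markers moved in the same interaction: 5 of 7 hepatocyte markers were higher (median log2 0.50), while 4 of 4 mononuclear phagocyte (-1.27), 3 of 4 myofibroblast (-1.60), 3 of 5 neutrophil (-1.25) and 2 of 4 red cell markers (-1.09) were lower. Of 7 endothelial markers 1 was higher and 3 lower, of 4 cholangiocyte markers 1 was lower, and no T or B cell marker was called. The part of all these markers' cells in the members' values was not tested. For Mt1 the interaction was -0.89 ± 0.31 (adjusted p = 0.0509) and for Mt2 -0.96 ± 0.34 (0.0525), both just short of the threshold. They passed under total-count scaling (-1.16, adjusted p = 0.0185, and -1.23, 0.0231) and without both B sections (-1.12, 0.00349, and -1.17, 0.00929). Slc30a1 (0.20 ± 0.10, adjusted p = 0.131) and Slc39a4 (-0.10 ± 0.10, 0.469) did not pass, and that of Slc39a4 did under total-count scaling (-0.38, 0.00630).

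**Figure D4:**
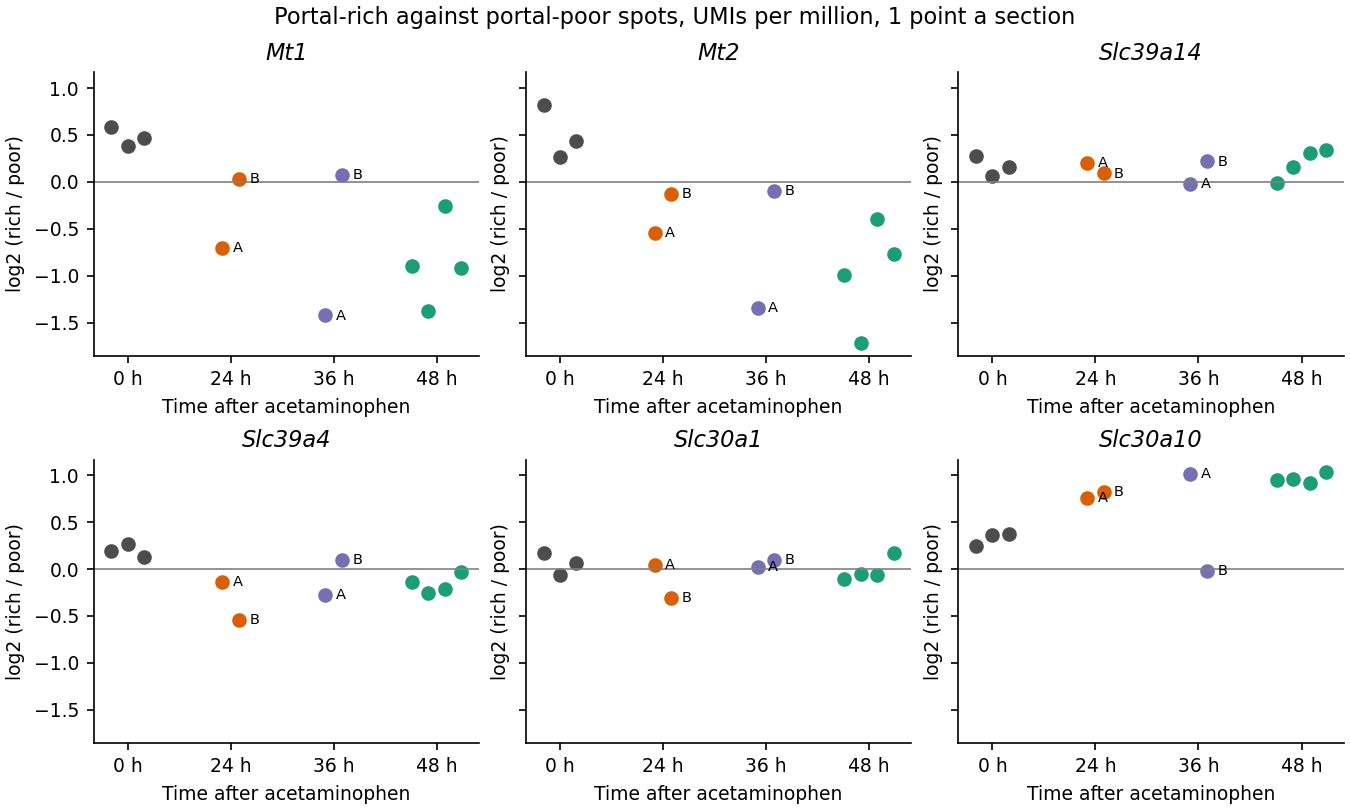
Log2 ratio of unscaled CPM in portal-rich over portal-poor spots for each of the 6 genes, with 1 point per section against time and sections A and B marked at 24 h and 36 h. Mt1 and Mt2 are above 0 in the 3 uninjured sections and below 0 in the injured ones, except Mt1 in both B sections, while Slc30a10 is above its 0 h points in all injured sections but 36 h B.

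Around the areas poorest in hepatocyte RNA, the members parted again. Hepatocyte-low spots had a hepatocyte marker score under the 1st percentile of uninjured spots, which is not a measure of necrosis. They numbered 24, 34 and 17 in 0 h sections 2, 3 and 4, 15 and 5 in A and B at 24 h, and 4 and 3 at 36 h. The score includes haptoglobin (Hp), which rose after injury. Scored without Hp and Cyp2e1, low spots numbered 159 and 64 in A and B at 24 h, and 35 and 7 at 36 h. With that score 7 injured sections had at least 20. With the full score 3 injured sections had at least 20, 48 h A (100), C (157) and D (39), and these were fitted. In their low spots Slc30a10 stood at 9.02, 7.64 and 20.1 CPM of unscaled UMIs, in the touching ring 16.8, 21.6 and 23.4, and 3 or more steps away 30.4, 28.5 and 42.5. The step down towards the hepatocyte-low spots was present in each section, although the counts were small, with 19, 27 and 19 UMIs in the low spots. Slc39a14 stood at 66.5, 56.9 and 34.8 in low spots, 98.0, 96.7 and 57.5 in the ring and 105, 103 and 72.2 far away. Of the hepatocyte markers, whose score chose the spots, 7 of 7 were lower in low than in far spots (median log2 -1.41) and 6 of 7 in the ring (-0.43). Markers of most other cells were higher in low spots, with 4 of 4 for mononuclear phagocytes (1.60), 5 of 5 for neutrophils (1.82), 4 of 4 for myofibroblasts (2.07) and 4 of 4 for red cells (1.08). For B cells 2 of 2 were higher (1.70) and for endothelium 4 of 7 (0.79). Of 4 cholangiocyte markers 0 were higher and 1 lower (-0.06), and the 1 T cell marker tested was not called. Of all genes 58.9% passed in either direction and 28.4% were lower. The part of these markers' cells in the members' values was not tested.

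Mt1, by contrast, stood at 1696, 2130 and 629 CPM of unscaled UMIs in hepatocyte-low spots, 1680, 2695 and 569 in the ring and 1272, 2372 and 393 far away, so that it was higher in low than in far spots in A and D and lower in C. With section as a block, 4 members were lower in low than in far spots, where 58.9% of genes passed and 28.4% were lower: Slc30a10 (log2 -2.20 ± 0.17 SE, edgeR, adjusted p = 1.97e-12), Slc39a14 (-1.35 ± 0.09, adjusted p = 4.50e-14), Slc39a4 (-0.77 ± 0.12, 2.39e-06) and Slc30a1 (-0.46 ± 0.12, 0.00105). Mt1 (-0.23 ± 0.13, adjusted p = 0.170) and Mt2 (-0.19 ± 0.17, 0.383) did not pass, although Mt1 did without section D (-0.40, adjusted p = 0.00442) and Mt2 without section A (-0.55, 9.20e-05). With these omissions counted, each of the pair passed in 2 of 7 alternative settings. Total-count scaling took away the calls of Slc39a4 (-0.24, adjusted p = 0.0813) and Slc30a1 (0.06, 0.658) and left those of Slc30a10 (-1.67) and Slc39a14 (-0.82), and Mt1 (0.29) and Mt2 (0.33) then changed sign without passing. In the ring, where 38.8% of genes passed and 19.8% were lower, Slc30a10 (-0.91 ± 0.09, adjusted p = 3.70e-09), Slc39a14 (-0.41 ± 0.06, 5.97e-06) and Slc30a1 (-0.20 ± 0.08, 0.0416) were lower than far away, the last of these not under total-count scaling (0.05, 0.583) or without section C or D (-0.19 and -0.15, adjusted p = 0.207 and 0.209). Without section C, Mt1 (0.22, adjusted p = 0.0198) and Mt2 (0.26, 0.0334) were higher in the ring than far away.

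**Figure D5:**
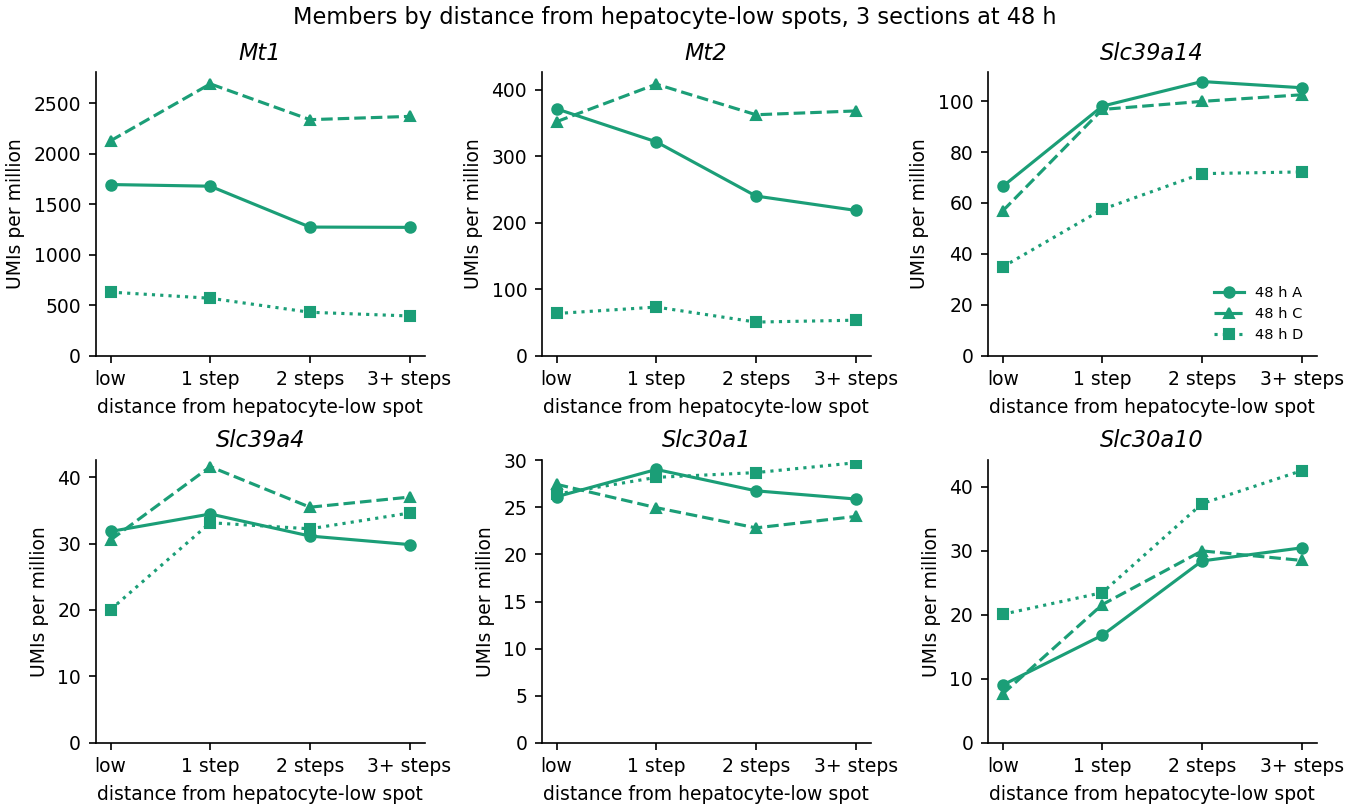
Unscaled CPM (UMIs per 1000000) of each of the 6 genes in hepatocyte-low spots and at 1, 2 and 3 or more steps from them on the spot grid, in sections 48 h A, C and D (linear axes from 0). Slc30a10 and Slc39a14 are higher at 3 or more steps than in low spots in all 3 sections, and Mt1 is higher in low than in far spots in A and D.

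Other zinc transporters were read from a list of the remaining family members. Of the 11 other SLC39 importers tested, 6 were higher and 1 lower at 24 h, 4 and 2 at 36 h, and 2 and 1 at 48 h, with a median log2 difference of 0.64, 0.35 and 0.08 beside 0.05, 0.05 and 0.01 over all genes, of which 23.1%, 16.8% and 23.3% were higher. Under total-count scaling the counts were 8 and 1, 8 and 1, and 8 and 0, where 41.1%, 47.7% and 60.2% of all genes were higher. Slc39a6 (ZIP6) rose at each time (1.69, 0.61 and 0.86), as did Slc39a13 (0.71, 0.55 and 0.63), and Slc39a1 at 24 h and 36 h (0.92 and 0.67). Slc39a8 (ZIP8), the closest relative of ZIP14 and like it a carrier of manganese, fell at each (-0.72, -0.88 and -0.56), at 48 h not under total-count scaling (-0.03). Of the 6 other SLC30 exporters tested, 3 rose at 24 h and 1 at 36 h, and 1 fell at 48 h, with Slc30a4 higher at 24 h (1.26) and 36 h (0.74). Under total-count scaling 4, 3 and 4 of the 6 were higher and none lower, beside the shares of all genes just given for that scaling.

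Genes downstream of NRF2 and metal, a list of 7 with the metal sensor Mtf1, gave 5 higher at 24 h, 3 at 36 h and 3 at 48 h, and none lower, where 23.1%, 16.8% and 23.3% of all genes were higher, with medians of 0.57, -0.04 and 0.24. Srxn1, which repairs oxidized peroxiredoxin, rose by log2 3.05, 1.79 and 1.66, the haem-degrading enzyme Hmox1 by 2.39, 1.47 and 2.30 and the quinone reductase Nqo1 by 1.62, 0.94 and 1.13. Mtf1 itself was higher at 24 h only (0.39, edgeR adjusted p = 0.0437), and at 36 h (0.38) and 48 h (0.51) only under total-count scaling. Of 19 acute-phase genes, 16 were higher and 1 lower at 24 h, and 6 and 3 at both later times, with medians of 1.46, 0.97 and 0.34. Under total-count scaling 18, 12 and 12 were higher and none lower, where 41.1%, 47.7% and 60.2% of all genes were higher. The iron-binding lipocalin Lcn2 rose by 7.81, 6.64 and 6.22, Orm2 by 4.27, 2.74 and 2.94 and haptoglobin (Hp) by 2.70, 1.74 and 1.17, while Crp fell by 0.46, 0.70 and 0.36 and was not called under total-count scaling.

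Glucocorticoid-responsive genes did not rise as a list. Of 11, 1 was higher and 4 lower at 24 h, 1 and 1 at 36 h, and 1 and 5 at 48 h (medians -0.95, -0.02 and -0.48), the one that rose each time being Fkbp5, a co-chaperone of the receptor (2.67, 3.58 and 1.78), while the receptor gene Nr3c1 fell (-0.95, -0.56 and -0.47), under total-count scaling at 24 h alone. Between A and B, however, Fkbp5 went from 28.2 to 82.5 CPM at 24 h and from 29.2 to 177 at 36 h, and 3 of 11 genes of the list at 24 h and 7 of 11 at 36 h were more than 2-fold higher in B. Genes of copper, iron and manganese handling gave 3 higher and 3 lower, 3 and 2, and 2 and 3 of 12 tested (medians 0.02, 0.07 and 0.00). Of all genes 23.1%, 16.8% and 23.3% were higher and 18.6%, 12.4% and 20.9% lower. Under total-count scaling the counts of this metal list were 5 and 1, 6 and 0, and 7 and 0, beside 41.1%, 47.7% and 60.2% of all genes higher. Ferritin heavy chain (Fth1) rose by 1.59, 0.90 and 0.51 and ceruloplasmin (Cp) by 1.44, 0.78 and 0.69, and the copper chaperone Ccs fell by 1.07, 0.87 and 0.82, the last 2 of these not under total-count scaling.

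Over the 11 sections, the genes whose log2 levels were most like Mt1 among 7087 were the non-muscle myosin heavy chain Myh9 (Pearson r = 0.976), the myosin light chain Myl6 (0.956), Fam234b (0.946), plectin (Plec, 0.943) and Serpina3m (0.942). For Mt2 they were Myh9 (0.977), Myl6 (0.957), Plec (0.949), Ago2 (0.948) and Fkbp5 (0.947). Within the 8 injured sections alone Myh9 had an r of 0.958 with Mt1 and 0.961 with Mt2. These values describe 11 libraries that differ in depth and time, with 24 h B and 36 h B far from the rest. Slc39a14 had an r of 0.882 with Mt1, and Slc30a10 -0.593. Over spots, where sparse counts keep every r low, Fth1 came first at 48 h with a mean r of 0.231 over 4 sections, followed by Igfbp1 (0.158) and Krt18 (0.153). Fth1 was also second at 24 h (0.137, after Ftl1 at 0.175) and at 36 h (0.161, after Ahsg at 0.162), whereas at 0 h no gene exceeded 0.0812, the value of Fgb.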

How the data were processed

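For each section the authors deposited raw, unnormalized UMI counts per gene and spot barcode, spots beside the tissue included. Per the submitters' processing notes, Space Ranger 1.0.0 and Seurat 4.1.1 were used with mm10, and the methods name Ensembl gene models.

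Following the study's filter, on-tissue spots needed 800 genes or more and no more than 20% mitochondrial UMIs. Their counts were summed per section, since spots are not replicates (31292663 to 67045372 UMIs). Sums were tested with edgeR 4.0.16 (filterByExpr, TMM, robust quasi-likelihood fit, two-sided, Benjamini-Hochberg over all genes tested, called at an adjusted p under 0.05) in R 4.3.3. Spot classes were formed on spots thinned to 2000 UMIs, and their unthinned counts were summed per section and fitted with section as a block. Section measures were compared by exact permutation tests with scipy 1.17.1. DESeq2 1.42.0, total-count scaling, no count filter, other spot classes and the omission of sections were alternatives, and the omission of both B sections was chosen after seeing the data. The same steps were tested on simulated data.

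The 6 members and all gene lists were chosen with earlier results of these data known. All members are named, and of every other list at most 3 genes that rose and 3 that fell, those called in the most comparisons with 0 h and then with the largest mean difference. Likeness to Mt1 or Mt2 was ranked among genes of at least 10 CPM on average, and over spots among genes detected in at least 20% of them. The central and portal lists came from the study's own spatial data. Intervals cover counting error only.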

Additional observations from a re-analysis of the deposited data

Results flagged for a closer look

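The gradient between portal-rich and portal-poor spots differed between injured and uninjured sections for Slc39a14 (log2 0.27) and Slc30a10 (0.81), by the interaction term of the edgeR fit.

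UMIs from spots outside the tissue mask, which entered no comparison, also carried the metallothioneins. In CPM of the off-tissue UMIs, Mt1 was at 347 in the lowest injured section and at 177 in the highest uninjured one, and Mt2 at 53.3 and 24.1. The off-tissue level of Mt1 was 0.662 to 1.20 of that in passing spots of the same section. In 10 checks over the 48 h sections, for the members and section measures, no single section lay far enough from the other 3 to be marked.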

How the results depend on the processing

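Members passing the threshold were, for 24 h, 36 h and 48 h against 0 h, 4, 5 and 2 in the main analysis and 5, 6 and 5 with total-count scaling, 4, 4 and 1 without a count filter, 4, 3 and 4 with only the 2 groups compared, 4, 5 and 4 with DESeq2 and 4, 2 and 4 without both B sections. Of all genes, 6180, 4329 and 6552 of 14821 passed in the main analysis and 7584, 7506 and 9519 with total-count scaling. Without both B sections 5242, 2783 and 7540 of 15488 did. For 36 h against 24 h and 48 h against 36 h DESeq2 gave 1 and 2 where edgeR gave 0, and for 48 h against 24 h no count filter gave 2 where the main count was 4. Leaving out 1 section at a time gave 4 at 24 h, 2 to 5 at 36 h (2 without 36 h B), 1 to 4 at 48 h (1 without 0 h 3, 0 h 4 or sections A or C of 48 h, 4 without either section of 24 h), 0 to 1 in both comparisons with 36 h among injured times (1 without either section of 36 h), 2 to 5 for 48 h against 24 h (2 without 24 h B or sections A or B of 48 h), 4 to 5 for zonation, 4 to 5 in hepatocyte-low spots, 2 to 4 in the ring and 1 to 5 for the portal gradient (1 without any of the uninjured sections or without C or D of 48 h, 5 without 24 h B). Hepatocyte-low spots gave 2 members with total-count scaling, and the portal gradient 4 with that scaling, with narrower spot classes and without both B sections, and 1 without a count filter. The cause was not tested.

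With the section letter as a replicate block, on injured sections only, 0 members passed for 48 h against 24 h, against 3 on the same sections with no block, and 0 in the other 2 comparisons. Letters C and D occur only at 48 h, so that fit has little left to estimate spread from. Its 0 calls therefore cannot be read as a result about the members. Deviations of same-lettered sections from the mean of their time correlated at -0.23 to 0.27. At 24 h and 36 h A and B mirror each other, so their pairs give 1 shared value (0.27). These values cannot tell whether the letters pair sections.

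Leaving out 1 section, the difference in metallothionein share lay at 0.354 to 0.661 percentage points, in the ratio at -4.36 to -3.31, and in Moran's I at 0.108 to 0.142 for Mt1 and 0.0205 to 0.0359 for Mt2. Leaving out any 0 h section left none of the 4 exact tests passing (adjusted p of 0.0593 to 0.178), leaving out any section did so for Mt2's Moran's I, and leaving out both B sections did so for the ratio (-3.34) and for Mt2's Moran's I (0.0218). With a 0 h section out, passing would need all 4 tests at the smallest p possible, so that loss was close to fixed by the design.

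Values that changed sign, none of them called either way unless named, were as follows (log2). With total-count scaling they were Slc30a10 at 24 h (0.044), Slc30a1 at 48 h (0.35, called), in low spots (0.062, called before), in the ring (0.054, called before), in the portal gradient (-0.075) and in injured portal-rich spots (-0.018, called before), Mt1 and Mt2 in low spots (0.29 and 0.33), and Slc39a4 in the ring (0.12) and in injured portal-rich spots (-0.18, called both ways). With a limit at the 5th percentile they were Mt1 and Mt2 in low spots (0.060 and 0.051). Over single omissions Slc30a1 at 24 h ranged from -0.082 (0 h 4 out) to 0.10 and was -0.011 with 24 h B out and -0.048 with both B out, and between zones it ranged from -0.17 to 0.021 (0 h 2 out). Slc30a10 at 24 h ranged from -0.66 to 0.0051 (24 h B out), and at 48 h against 36 h from -0.045 (36 h B out) to 2.02, and was -0.042 with both B out. At 36 h against 24 h Mt1 ranged from -2.87 to 1.64 and Mt2 from -3.26 to 1.98 (24 h B out), and they were 0.23 and 0.57 with 36 h A out. In low spots Mt1 ranged from -0.40 to 0.049 and Mt2 from -0.55 to 0.15 (48 h C out).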

Other observations

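Mt3 and Mt4, metallothioneins known from brain and from stratified epithelium and neighbours of Mt1 and Mt2 on chromosome 8, were barely detected in uninjured liver and were counted in every injured section. Mt3 had 1 UMI over the 3 uninjured sections and 1440 over the 8 injured ones, with 55 to 352 in each. Per UMI sequenced this is a ratio of 665, with an exact 95% interval of 119 to 26290 for counting error only. Mt4 had 1 UMI against 463 (3 to 138 per section), a ratio of 214 (38.2 to 8465). Both lay far below Mt1, which had 231 to 2279 UMIs for each Mt3 UMI in the injured sections. Whether reads of Mt1 or Mt2 were assigned to these related genes was not tested.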
